A study of Mus musculus with 12 samples.

Results

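Lipid droplets are the organelles in which a macrophage keeps sterol ester and triglyceride, and 10 genes of their coat, their lipases and the enzymes that fill them were followed in peritoneal macrophages (PMφs) with and without oxidized LDL (oxLDL) and LPS. The genes, taken as a fixed list of symbols, were Plin2, Plin3, Hilpda, G0s2, Angptl4, Pnpla2, Lipe, Soat1, Dgat1 and Dgat2, 10 of the 43278 gene symbols in the table. No cutoff on measured values set the list, but it was chosen with earlier results of these data known. Of the 10 genes, 9 reached a normalized count of 10 in at least 3 of the 12 libraries and G0s2 did not. RNA was sequenced from 12 cultures of wild-type PMφs, which are cells drawn into the peritoneal cavity with thioglycolate, collected on day 4 and used after 18 h in culture. Control cultures received neither agent, oxLDL cultures received 100 µg/ml human medium oxLDL for 24 h, LPS cultures received 10 ng/ml ultrapure LPS, and oxLDL+LPS cultures received oxLDL and then LPS, with 3 libraries in each group. All groups share the thioglycolate, and the study's methods describe young adult C57BL/6J mice of both sexes whose cells were pooled within an experiment and divided among the groups. By these methods a library is a pool and not an animal, although the sex-linked RNAs given below show that not every library held both sexes. How long these cultures were kept in LPS is not given.

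A lipid droplet is a core of neutral lipid under a single layer of phospholipid to which coat proteins bind. Perilipins such as PLIN2 and PLIN3 hold lipases away from the core, PNPLA2 (ATGL) removes the first fatty acid from triglyceride, and LIPE (hormone-sensitive lipase) takes the next and also cleaves sterol esters. The droplet is filled by SOAT1, which esterifies cholesterol, and by DGAT1 and DGAT2, which make triglyceride, and macrophages that store much sterol ester are the foam cells of the atherosclerotic plaque.

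The values are counts that were divided by a factor per library and rounded, called normalized counts here, and the factors read from their spacing imply 16725738 to 26178431 counted reads per library. The values of a library summed to between 17152972 and 17709731 in the 6 libraries without LPS and to between 22071853 and 26384551 in the 6 with LPS, and scaling every library to the same total moved the median of all genes by -0.48 on the log2 scale for LPS minus Control and by -0.40 for oxLDL+LPS minus oxLDL. Replicate numbers marked shared material: over 13482 genes, deviations from the group means correlated at 0.60 to 0.66 between control and oxLDL libraries of the same number, at 0.57 to 0.60 between LPS and oxLDL+LPS libraries, and at 0.27 to 0.57 across LPS. Number 1 nevertheless held different pools without and with LPS, since Xist, the RNA of the inactive X chromosome, was at 1 and 2 in the control and oxLDL libraries and at 6331 and 3812 in the LPS and oxLDL+LPS libraries. The Y chromosome gene Ddx3y was at 1156 and 1132 in those control and oxLDL libraries, as in male cells. Number 2 had Xist at 5933 to 7751 and Ddx3y at 0 to 2, as in female cells. Number 3 had both, at 3538 to 4217 and 707 to 775. Sex thus differed between replicate numbers, and its part in the results was not tested. All 7 macrophage markers were present, with a summed normalized count of 230743 to 324472. Adipocyte markers summed to 21 to 69, of which Slc36a2 gave 21 to 67, and Adipoq was at 0 or 1. With LPS the T cell sum stood at 82 to 239 against 13 to 26 without, nearly all of it Lck with the Cd3 genes at 0 to 2, the neutrophil sum at 79 to 258 against 31 to 49, nearly all of it S100a8 with Ly6g at 0, and the eosinophil sum at 58 to 125 against 182 to 385, nearly all of it Siglecf with Prg2 and Ear6 at 0. Of the macrophage markers, Adgre1 (as Emr1), Mertk and Fcgr1 were higher in all 6 libraries with LPS, at means of 20906, 5546 and 4595 against 6668, 2483 and 620 without. Csf1r, Itgam, Cd68 and Lyz2 overlapped between libraries with and without LPS. Their means with LPS were 11154.8, 7347, 43735 and 178429, against 11996.5, 7641, 45084 and 167930 without. The 6 mesothelial and fibroblast markers moved with the replicate number, from 15141 to 26861 in number 1 to 4399 to 5125 in number 3. Within number 1 their sum was 21382 in control and 17351 with oxLDL, and 26861 with LPS and 15141 with both. It was not lower with oxLDL in every number, at 4729 in control and 4878 with oxLDL in number 3. The part of these markers in the results was not tested.

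The sequences before the start sites are shown for Plin2, Plin3 and Soat1, which fell together under LPS, and for Hilpda, which did not fall on the scale of the normalized counts. Pnpla2 also fell, and its window, which held no match of the sequences searched below, is not printed. They are RefSeq sequences of GRCm38.p6, read 5′ to 3′ on the strand of the gene. Plin2 is shown from chr4:86670061-86670309, Plin3 from chr17:56290512-56290761 and Soat1 from chr1:156474332-156474578, all on the minus strand. Hilpda, at the more upstream of its start sites, is shown from chr6:29272238-29272487 on the plus strand. The Plin3 window lies inside the annotated span of its gene, 56277476 to 56292873, so its start site is not the most upstream. Capitals mark AGGTCA on either strand, the half-site of nuclear receptors such as PPARs with RXR.
Plin2: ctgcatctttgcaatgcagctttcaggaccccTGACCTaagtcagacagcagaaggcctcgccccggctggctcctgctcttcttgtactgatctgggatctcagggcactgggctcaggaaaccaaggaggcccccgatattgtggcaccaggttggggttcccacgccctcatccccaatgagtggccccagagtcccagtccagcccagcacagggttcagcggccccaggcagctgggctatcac
Plin3: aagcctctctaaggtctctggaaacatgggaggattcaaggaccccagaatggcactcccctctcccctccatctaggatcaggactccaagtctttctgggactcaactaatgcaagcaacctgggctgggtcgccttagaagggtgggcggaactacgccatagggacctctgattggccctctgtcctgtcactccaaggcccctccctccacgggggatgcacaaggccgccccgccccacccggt
Soat1: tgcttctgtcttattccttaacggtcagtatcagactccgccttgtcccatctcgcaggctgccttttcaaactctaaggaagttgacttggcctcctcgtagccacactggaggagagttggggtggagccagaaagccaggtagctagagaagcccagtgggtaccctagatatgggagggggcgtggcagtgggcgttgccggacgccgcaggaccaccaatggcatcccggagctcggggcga
Hilpda: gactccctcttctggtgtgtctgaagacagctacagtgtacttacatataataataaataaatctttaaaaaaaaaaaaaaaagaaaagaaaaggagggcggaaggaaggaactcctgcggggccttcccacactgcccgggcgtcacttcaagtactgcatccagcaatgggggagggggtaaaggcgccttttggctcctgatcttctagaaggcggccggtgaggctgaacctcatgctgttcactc
AGGTCA stood 218 bases before the start of Plin2 and in no other window of the members, and 14.0% of all 32851 windows of 250 bases held it. The direct repeat AGGTCANAGGTCA, which contains AGGTCA and was searched on both strands, was in no window of the members and in 0.033% of all windows. ACGTG, the core bound by hypoxia-inducible factors and part of the E-box CACGTG, was searched on both strands and was found in windows of Hilpda and Lipe and in 16.6% of all windows. The Hilpda match lay 43 bases before its more downstream start site, and the Lipe matches, which overlap on opposite strands, lay 155 and 154 bases before a start site. Both of those windows run over annotated exons and are not printed. Windows were found for 7 of the 10 genes, and none was listed for Angptl4, Dgat1 and Dgat2.

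Per kilobase of exon, Plin2 was the highest of the 10 genes in every group, with 7167 ± 105 normalized counts per kb in control cells, 9738 ± 519 with oxLDL, 3324 ± 180 with LPS and 4604 ± 536 with both agents (SD, n = 3). In control cells Soat1 followed at 1996 ± 107 per kb, then Plin3 at 1135 ± 28.2, Pnpla2 at 1054 ± 28.4, Hilpda at 609 ± 23.4, Dgat1 at 139 ± 20.5, Lipe at 53.1 ± 6.10, Angptl4 at 42.9 ± 8.70, Dgat2 at 2.70 ± 0.37 and G0s2 at 1.53 ± 1.75. Lipe and Angptl4 overlapped in this order, as did Dgat2 and G0s2, and the other neighbours did not. With LPS the order changed, and Hilpda came second at 820 ± 139 per kb. Pnpla2 at 526 ± 70.3 and Soat1 at 525 ± 56.4 then overlapped, Plin3 stood at 342 ± 22.2, and Lipe at 132 ± 20.4 stood above Dgat1 at 104 ± 8.39. Angptl4 at 30.2 ± 13.5 and Dgat2 at 21.7 ± 5.90 overlapped.

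**Figure D1:**
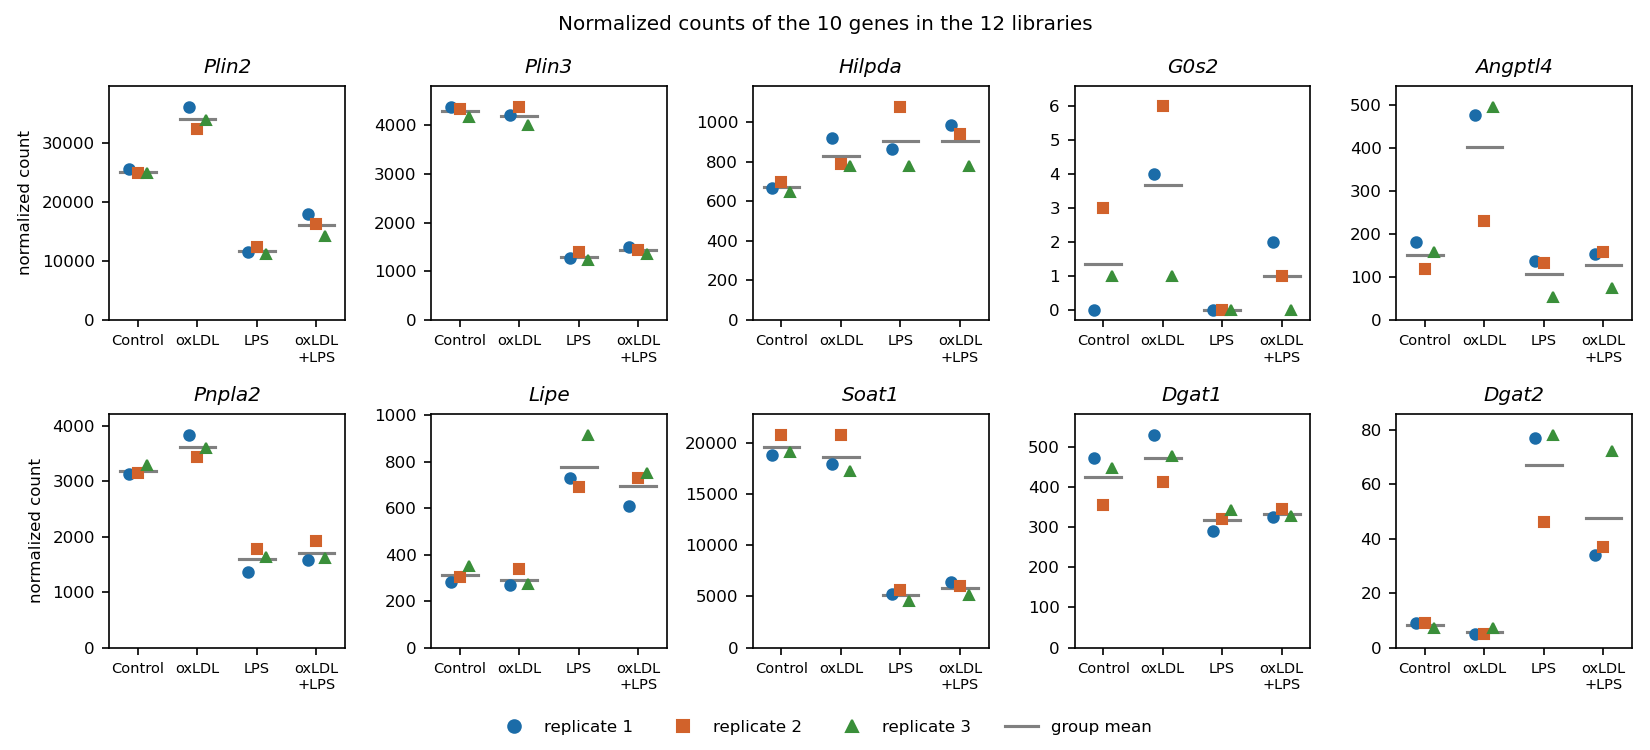
Normalized counts (linear axes, 1 panel per gene) of the 10 genes by group, with a symbol per library and replicate number and a line at the group mean. Plin2, Plin3, Pnpla2 and Soat1 are lower in all 6 libraries with LPS than in all 6 without, Lipe and Dgat2 are higher, and G0s2 stays between 0 and 6.

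Loading with oxLDL asked what sterol-rich lipoprotein alone does to these genes. Plin2, Hilpda, Angptl4 and Pnpla2 were higher with oxLDL than without in each of the 3 replicate numbers, and their groups did not overlap, which was so for 7.7% of the 12751 genes tested. In limma on log2(normalized count + 1) without a block, 0 of the 8 members tested were called at an adjusted p under 0.1, against 0% of all genes, while 381 genes had an unadjusted p under 0.05 and 4 of them were these 4 members. With the replicate number as a block, limma called these 4 members, all higher, where it called 4.71% of all genes and 1.8% as higher. Over the 8 members the median difference was 0.17 on the log2 scale, against -0.01 over all genes. Without the block, the unadjusted p of the 4 genes ran from 0.0013 for Plin2 to 0.024 for Pnpla2, and over the alternatives that kept every library their adjusted p ran from 0.00020 to 1. Leaving out replicate number 1 or number 2 from the blocked fit left 1 member called, Angptl4, and leaving out number 3 left 4. Of all genes these fits called 214 of 12376 without number 1, 139 of 12368 without number 2 and 1285 of 12451 without number 3.

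In cells given LPS, oxLDL asked the same question on another background. Plin2 was higher with oxLDL in each replicate number, and it was 1 of 9 members whose groups did not overlap, which was so for 12.6% of the 12786 genes tested. Limma without a block called 0 members and 0% of all genes, with 890 genes at an unadjusted p under 0.05, of which 1, Plin2, was a member. With the block it called 1 member, Plin2, where 13.2% of all genes were called and 4.42% as higher. Without number 1 or without number 3 the blocked fit called 0 members, and without number 2 it called 4, with Plin2 and Soat1 higher and Lipe and Dgat2 lower. Of all genes it called 71 of 12266 without number 1, 0 of 12452 without number 3 and 2945 of 12334 without number 2. Scaling to the same total with the block called 3, Plin2, Plin3 and Soat1, all higher, where it called 1581 of 12786 genes, 1015 as higher.

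**Figure D2:**
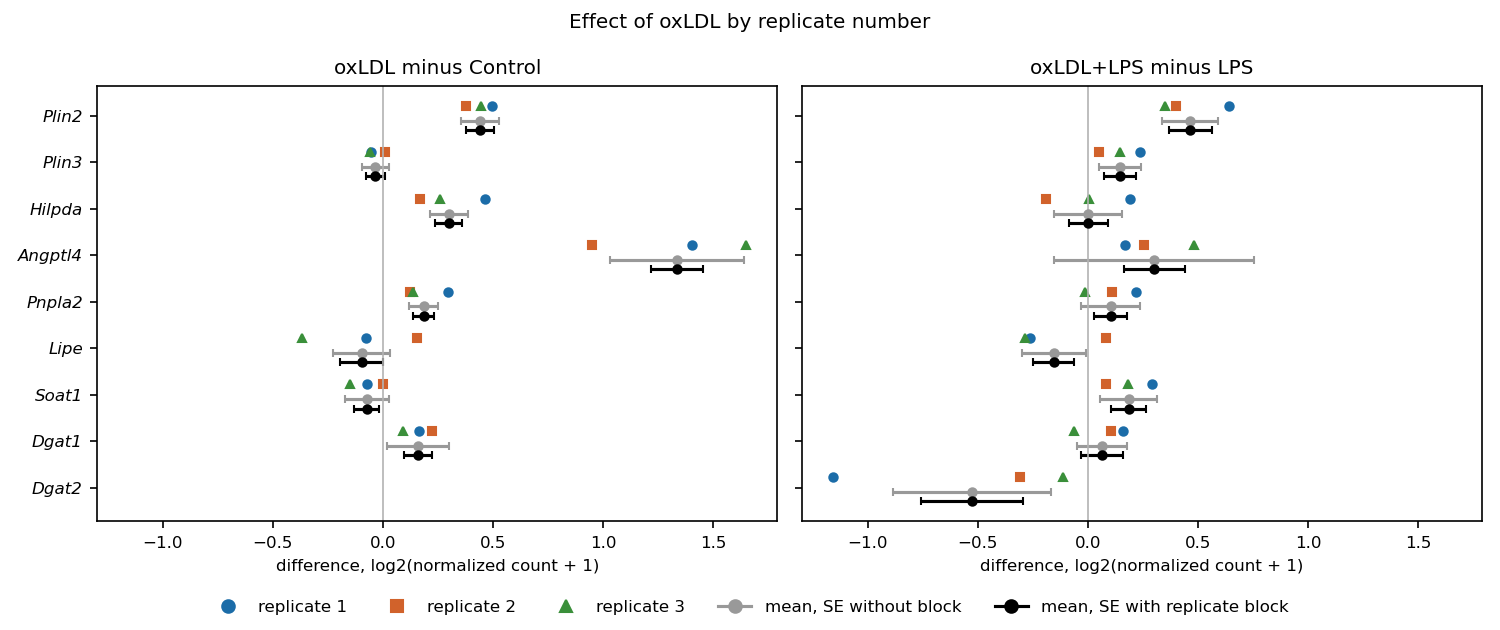
Differences between oxLDL and matching libraries on the log2(normalized count + 1) scale, without LPS (left) and with LPS (right), 1 symbol per replicate number, with the mean and its limma SE without (grey) and with (black) the replicate block. Plin2 lies to the right of 0 in all 6 pairs, and Angptl4 lies between 0.95 and 1.65 on the left and between 0.17 and 0.48 on the right.

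LPS moved most of the members, with and without oxLDL. For LPS minus Control, limma without a block called 8 of 9 members, 5 lower and 3 higher, where it called 61.7% of 13023 genes, 30.3% as lower and 31.4% as higher. The groups of these 8 did not overlap, which was so for 63.2% of all genes, so that the share of members called was high on a high background. For oxLDL+LPS minus oxLDL it called 8 of 9 members, 6 lower and 2 higher, where it called 54.5% of 12900 genes, 26.3% as lower and 28.2% as higher, and groups did not overlap for 57.6%. Scaled to the same total, the split of called genes moved from 4093 higher and 3946 lower to 2210 and 7200 for LPS minus Control, and from 3633 and 3397 to 2055 and 6616 for oxLDL+LPS minus oxLDL. Dgat2 passed the filter through its LPS libraries alone and so had to differ, and without it, under a filter of 10 in every library, 7 of 8 members were called in each of these comparisons. Under that filter limma called 7191 of 11410 genes for LPS minus Control and 6409 of 11416 for oxLDL+LPS minus oxLDL. The median difference of the members was -0.61 for LPS minus Control and -1.09 for oxLDL+LPS minus oxLDL, against 0.00 and -0.02 over all genes. The replicate block changed none of these calls, although number 1 does not pair libraries across LPS. Without number 1, whose pools differed across LPS, the fit without a block called 5 of 8 members for LPS minus Control, with Plin2, Plin3, Pnpla2 and Soat1 lower and Lipe higher, and 7 of 8 for oxLDL+LPS minus oxLDL. Of all genes it called 6549 of 12092 for the first of these comparisons and 5412 of 12113 for the other. Less of a message in all cells and fewer cells that carry it cannot be told apart in these libraries.

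**Figure D3:**
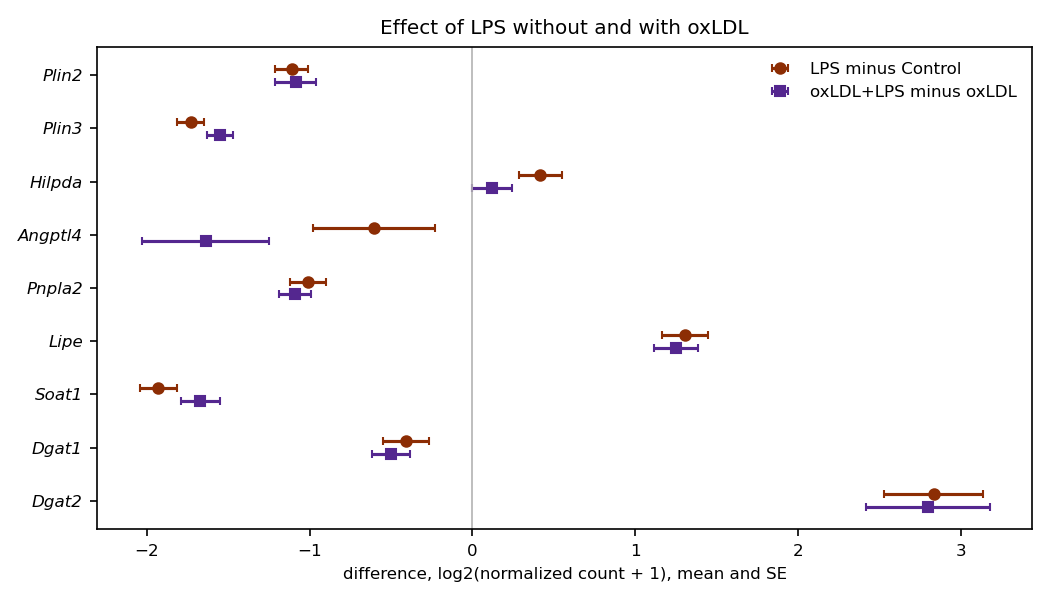
Differences between libraries with and without LPS on the log2(normalized count + 1) scale for 9 genes, in cells without oxLDL (circles) and with oxLDL (squares), as mean and limma SE without a block, 3 libraries per group. Soat1, Plin3, Plin2 and Pnpla2 lie at -1.01 or lower in both comparisons, Lipe at 1.25 or higher and Dgat2 at 2.80 or higher.

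Of the coat genes, Plin2 (chromosome 4, 86648386 to 86670060, minus strand on GRCm38) encodes the perilipin that covers droplets in macrophages. Its normalized count was 25596, 24997 and 24922 in the control libraries and 36138, 32521 and 33939 in the oxLDL libraries. All 3 loaded libraries stood above all 3 control libraries, and the rise was 0.50, 0.38 and 0.45 on the log2 scale in numbers 1, 2 and 3. The mean rise was 1.36-fold, 0.44 on the log2 scale with an SE of 0.09, or 0.06 with the block (limma, adjusted p = 0.75 without and 0.0053 with the block). With LPS, Plin2 was at 11498, 12375 and 11151 without oxLDL and at 17964, 16335 and 14208 with it. The lowest loaded library still stood above the highest unloaded one, and the difference was 0.46 with an SE of 0.13, or 0.10 with the block (limma, adjusted p = 0.70 and 0.026). LPS lowered Plin2 to 0.463 times its control level and to 0.471 times its oxLDL level, or by 1.11 and 1.09 on the log2 scale (limma, adjusted p = 6.5e-05 and 0.00036), and quantile normalization gave -1.93 and -1.83. The 2 effects of oxLDL differed by 0.02 with an SE of 0.14, and the limma interaction did not pass (adjusted p = 1.0). Plin2 with both agents stayed under every control library, with a highest value of 17964 against a lowest of 24922.

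Plin3 (chromosome 17, 56277476 to 56292873, minus strand), the more widely expressed perilipin that moves from the cytosol onto new droplets, was not higher with oxLDL in cells without LPS. Its values were 4375, 4345 and 4177 in control cells and 4216, 4372 and 4015 with oxLDL, and the groups overlapped. The difference was -0.03 with an SE of 0.06 (limma, adjusted p = 1.0 without and 0.77 with the block). With LPS it was at 1274, 1389 and 1225 alone and at 1500, 1441 and 1358 with oxLDL, again overlapping. It was higher with oxLDL in each number there, by 0.24, 0.05 and 0.15, with a mean of 0.15 (SE 0.09, or 0.07 with the block, limma, adjusted p = 0.78 and 0.26), and it passed with the block and a common total (limma, adjusted p = 0.096). Plin3 fell under LPS to 0.301 times its control level and to 0.341 times its oxLDL level, or by 1.73 and 1.55 on the log2 scale (limma, adjusted p = 2.7e-06 and 6.4e-06).

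A factor that scales a whole library cancels in the ratio of Plin2 to Plin3, although quantile normalization does not. The ratio was 5.85, 5.75 and 5.97 in control cells, 8.57, 7.44 and 8.45 with oxLDL, 9.03, 8.91 and 9.10 with LPS and 11.98, 11.34 and 10.46 with both. No 2 groups overlapped where they were compared, and each agent was followed by a higher ratio whether or not the other was present. On the log2 scale the ratio was higher by 0.47 for oxLDL minus Control, 0.32 for oxLDL+LPS minus LPS, 0.62 for LPS minus Control and 0.47 for oxLDL+LPS minus oxLDL. After quantile normalization the differences were 0.51, 0.41, 0.24 and 0.11, so that those with LPS kept their direction and were much smaller. Each difference in the normalized counts had p = 0.1 in an exact two-sided permutation test of 3 against 3 libraries, the smallest p that this design can give, and 0.13 after adjustment over the 12 comparisons of 3 ratios.

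**Figure D4:**
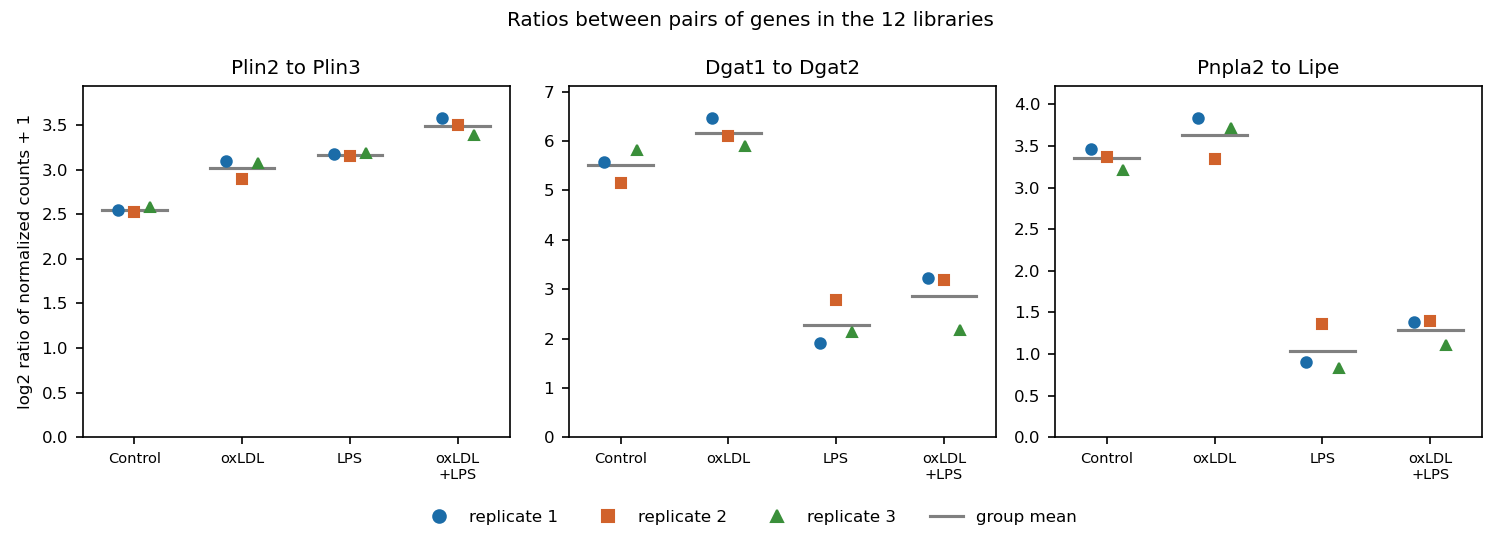
Ratios of Plin2 to Plin3, Dgat1 to Dgat2 and Pnpla2 to Lipe on the log2 scale (normalized counts plus 1, axes from 0) by group, with a symbol per library and a line at the group mean. The Plin2 to Plin3 ratio lies between 2.52 and 2.58 in control cells and between 3.39 and 3.58 with both agents, and the other ratios are lower in all libraries with LPS than in all without.

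Hilpda and G0s2 encode small proteins that bind and inhibit PNPLA2, and Hilpda is known as a gene induced by hypoxia and by fatty acids. Hilpda (chromosome 6, 29272488 to 29275446, plus strand) was at 667, 699 and 648 in control cells and at 921, 786 and 777 with oxLDL. Its groups did not overlap, and it was higher by 0.30 on the log2 scale with an SE of 0.09, or 0.06 with the block (limma, adjusted p = 1.0 without and 0.032 with the block). Under LPS alone it was at 864, 1075 and 776, above all control libraries, and with both agents at 987, 941 and 779. LPS raised Hilpda in unloaded cells by 0.42 on the scale of the normalized counts (SE 0.13, limma, adjusted p = 0.028), but the difference was -0.07 (adjusted p = 0.72) once libraries were scaled to the same total and 0.22 (adjusted p = 0.20) after quantile normalization, so that its direction depended on the scaling. Relative to the median gene it stood higher by 0.42, 0.41 and 0.36 under these 3 scalings. In loaded cells LPS gave 0.12 with an SE of 0.12 (limma, adjusted p = 0.45), which became -0.27 with a common total and -0.07 with quantile normalization, and oxLDL gave 0.00 with an SE of 0.15 in cells with LPS. The groups given either agent or both overlapped, with group means of 828 ± 80.7 with oxLDL, 905 ± 154 with LPS and 902 ± 109 with both (SD, n = 3). The limma interaction was -0.30 with an SE of 0.18 and did not pass (adjusted p = 1.0).

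G0s2 (chromosome 1, 193272161 to 193273217, minus strand) was barely detected. It was at 0, 3 and 1 in control cells, 4, 6 and 1 with oxLDL, 0 in all 3 LPS libraries, and 2, 1 and 0 with both. No fold change is given, and its groups could not be compared at this depth.

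Angptl4 (chromosome 17, 33773750 to 33781830, minus strand) encodes a secreted inhibitor of lipoprotein lipase and is a known target of PPARs. It showed the largest response to oxLDL of the members, from 180, 119 and 157 in control cells to 478, 231 and 495 in loaded cells. All 3 loaded libraries stood above the control libraries, and replicate number 2 was the lowest in both groups. The rise was 1.40, 0.95 and 1.65 on the log2 scale in numbers 1, 2 and 3, with a mean of 1.34 or 2.52-fold and an SE of 0.31, or 0.12 with the block (limma, adjusted p = 1.0 without and 0.00041 with the block). With LPS it was at 137, 132 and 52 without oxLDL and at 154, 158 and 73 with it. These groups overlapped, although each number was again higher with oxLDL, by 0.17, 0.26 and 0.48, and the mean of 0.30 did not pass (SE 0.46, or 0.14 with the block, limma, adjusted p = 0.92 and 0.23).

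LPS lowered Angptl4 in loaded cells to 0.321 times its level, or by 1.64 on the log2 scale (SE 0.39, limma, adjusted p = 0.011). In unloaded cells the difference was -0.61 with an SE of 0.38, with overlapping groups (limma, adjusted p = 0.21). It was -1.08 where libraries were scaled to the same total (adjusted p = 0.053), -0.15 without LPS replicate 3 and -0.12 without number 3 (adjusted p = 0.58 and 0.73). The effect of oxLDL was smaller with LPS than without by 1.03 on the log2 scale. This interaction had an SE of 0.60 and did not pass in the fit without a block (limma, adjusted p = 1.0), in which 0 members and 0% of 13482 genes were called and 418 genes had an unadjusted p under 0.05. A block by replicate number within each LPS state, chosen after the data were seen because number 1 held different pools, gave an SE of 0.19 and called Angptl4 (limma, adjusted p = 0.062), 1 of 9 members, where 1.09% of all genes were called. With the plain replicate block the adjusted p was 0.71. The interaction ran from -1.48 without LPS replicate 3 to -0.67 without oxLDL+LPS replicate 3. Over the alternatives that kept every library it ran from -1.18 to -0.94, and its limma adjusted p ran from 0.062 to 1.0.

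The lipases moved apart. Pnpla2 (chromosome 7, 141455198 to 141460743, plus strand) was at 3121, 3145 and 3280 in control cells and at 3829, 3428 and 3601 with oxLDL. The groups did not overlap, and the difference was small, 1.14-fold or 0.18 on the log2 scale (SE 0.07, or 0.05 with the block, limma, adjusted p = 1.0 and 0.076). With LPS it was at 1359, 1778 and 1629 alone and at 1580, 1921 and 1613 with oxLDL, which overlapped. LPS lowered Pnpla2 to 0.496 times its control level and to 0.470 times its oxLDL level, or by 1.01 and 1.09 on the log2 scale (limma, adjusted p = 0.00018 and 0.00012).

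Lipe (chromosome 7, 25379527 to 25398710, minus strand) was at 282, 303 and 352 in control cells and 267, 337 and 273 with oxLDL, and rose under LPS to 728, 689 and 914 alone and 607, 730 and 750 with oxLDL. Every library with LPS stood above every library without. The rise was 2.47-fold without and 2.38-fold with oxLDL, or 1.31 and 1.25 on the log2 scale (limma, adjusted p = 0.00017 and 0.00027), and it was 0.82 and 0.86 where libraries were scaled to the same total. Neither effect of oxLDL passed. Exons of Lipe share 918 bases with 4732471J01Rik on the opposite strand, and since the strand setting of the counting is not given, reads of the 2 genes may not be separable. The ratio of Pnpla2 to Lipe was 11.07, 10.38 and 9.32 in control cells, 14.34, 10.17 and 13.19 with oxLDL, 1.87, 2.58 and 1.78 with LPS and 2.60, 2.63 and 2.15 with both. On the log2 scale the difference with LPS was -2.32 in unloaded and -2.34 in loaded cells (p = 0.1 each, exact two-sided permutation test, adjusted 0.13), while the groups with and without oxLDL overlapped (p = 0.3 without and 0.2 with LPS, the same test, adjusted 0.30 and 0.22).

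Among the enzymes that fill the droplet, Soat1 (chromosome 1, 156424525 to 156474331, minus strand), the sterol esterifying enzyme of macrophages, had the largest fall. It was at 18788, 20736 and 19098 in control cells and at 17895, 20758 and 17238 with oxLDL, and these groups overlapped (difference -0.07, SE 0.10, limma, adjusted p = 1.0 without and 0.59 with the block). With LPS it was at 5248, 5636 and 4546, and with both agents at 6420, 5966 and 5161. LPS lowered it to 0.263 and 0.314 times its level in unloaded and loaded cells, or by 1.93 and 1.67 on the log2 scale (limma, adjusted p = 6.4e-06 and 3.8e-05). With LPS, oxLDL gave 0.19 with an SE of 0.13, higher in 3 of 3 numbers but with overlapping groups (limma, adjusted p = 0.79 without and 0.19 with the block).

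Dgat1 (chromosome 15, 76502015 to 76511953, minus strand) was at 474, 355 and 448 in control cells, 531, 414 and 478 with oxLDL, 292, 322 and 343 with LPS and 326, 346 and 328 with both. It fell under LPS by 0.41 in unloaded and by 0.50 in loaded cells on the log2 scale (limma, adjusted p = 0.041 and 0.011). The first of these calls was lost without control replicate 1, without control replicate 3 or without LPS replicate 1, and neither effect of oxLDL passed. Dgat2 (chromosome 7, 99153658 to 99182719, minus strand) was near the limit of detection without LPS, at 9, 9 and 7 in control cells and at 5, 5 and 7 with oxLDL. With LPS it was at 77, 46 and 78, and with both agents at 34, 37 and 72. Every library with LPS stood above every library without, by 2.83 and 2.80 on the log2 scale in unloaded and loaded cells (SE 0.31 and 0.38), a scale that understates the change of a gene this low. No p is given, since only its LPS libraries brought Dgat2 into these fits. It was lower with oxLDL in each number in cells with LPS, by 1.16, 0.31 and 0.11, and the difference did not pass (limma, adjusted p = 0.78 without and 0.21 with the block). Dgat1 exceeded Dgat2 by 52.7, 39.4 and 64.0 times in control cells and by 3.79, 7.0 and 4.40 times with LPS. On the log2 scale the ratio was lower by 3.24 with LPS in unloaded and by 3.30 in loaded cells. No p is given for these differences, since Dgat2 without LPS was below the filter. The ratio was higher with oxLDL by 0.59 with LPS, where the groups overlapped (p = 0.2, adjusted 0.22, exact two-sided permutation test), and it is not compared between control and oxLDL cells, where Dgat2 was below the filter.

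The rest of the lipid droplet machinery was followed in 4 lists of 57 genes. Of the 15 genes of droplet coat and fusion, 7 were tested, and 8 did not pass the filter, among them Plin1, Plin4, Plin5, Cidea and Cidec, coat and fusion proteins of fat and other storage tissues, which stayed between 0 and 3. For LPS minus Control, limma without a block called 31 of the 42 list genes tested, 16 higher and 15 lower, with a median difference of 0.04, where it called 61.7% of all genes, 31.4% as higher and 30.3% as lower. For oxLDL+LPS minus oxLDL it called 30 of 42, 16 higher and 14 lower, where it called 54.5% of all genes, 28.2% as higher and 26.3% as lower. Gpd1, among the 14 lower, passed the filter in that comparison through its oxLDL libraries alone and so had to differ. Scaling to the same total turned the direction of 6 of the 31 (Gpat4, Agpat1, Agpat5, Lpin2, Lamp2 and Rab18) and 5 of the 30 (Gpat4, Agpat1, Agpat5, Lamp2 and Aup1), none of which had changed by more than 0.45 on the log2 scale. Genes that changed by at least 1 are named here, a size chosen after the values were seen.

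In the synthesis list, 11 of 16 genes were called for LPS minus Control, 9 higher and 2 lower, where 61.7% of all genes were called. With a common total 8 were called, 3 higher and 5 lower, and after quantile normalization 7, 5 higher and 2 lower, so that the split rests on the scaling. Of all 13023 genes, the common total called 9410, 2210 higher and 7200 lower. Quantile normalization called 8059 of them, 3243 higher and 4816 lower. Lpin1, a phosphatidate phosphatase that makes the diglyceride for triglyceride, fell from 726, 1042 and 913 to 29, 45 and 23, a difference of -4.78 on the log2 scale (SE 0.26, limma, adjusted p = 4.4e-06). Gpd1, which supplies glycerol 3-phosphate, fell from 54, 40 and 44 to 11, 6 and 1, so that its LPS libraries were near or below the filter of 10. Acsl1, which activates long-chain fatty acids, rose from 1273, 1257 and 1182 to 6779, 6727 and 7263, or by 2.48 (SE 0.08, limma, adjusted p = 4.3e-07), and Acsl5 rose by 1.37. In the breakdown list, 8 of 10 were called, 6 lower and 2 higher, against the same 61.7% of all genes. With a common total all 8 called were lower, where that scaling called 7200 of all genes as lower and 2210 as higher. Nceh1, a neutral sterol ester hydrolase, fell by 2.24. Tfeb, which drives lysosome genes, fell by 1.72, Atg7, which acts in autophagy, fell by 1.47, and Lipa, the acid lipase of the lysosome, fell by 1.26. Nceh1 and Lipa, both sterol ester hydrolases, moved opposite to Lipe.

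In the list of regulators, 8 of 9 were called for LPS minus Control, 4 higher and 4 lower, where 61.7% of all genes were called. Pparg, the lipid-sensing nuclear receptor, fell from 1232, 1230 and 1284 to 81, 123 and 109, a difference of -3.59 on the log2 scale. Cebpa fell by 3.15, Epas1 (HIF-2α) fell by 1.69 and Rxra fell by 1.25. Hif1a rose from 2033, 2076 and 2003 to 9099, 7885 and 9081, or by 2.09, and Cebpb by 2.01. Each of these genes moved in the same direction in loaded cells, although Lipa and Rxra then changed by less than 1. Gpd1 was at 73, 42 and 46 with oxLDL and at 5, 5 and 3 with both agents, and only its oxLDL libraries passed the filter.

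**Figure D5:**
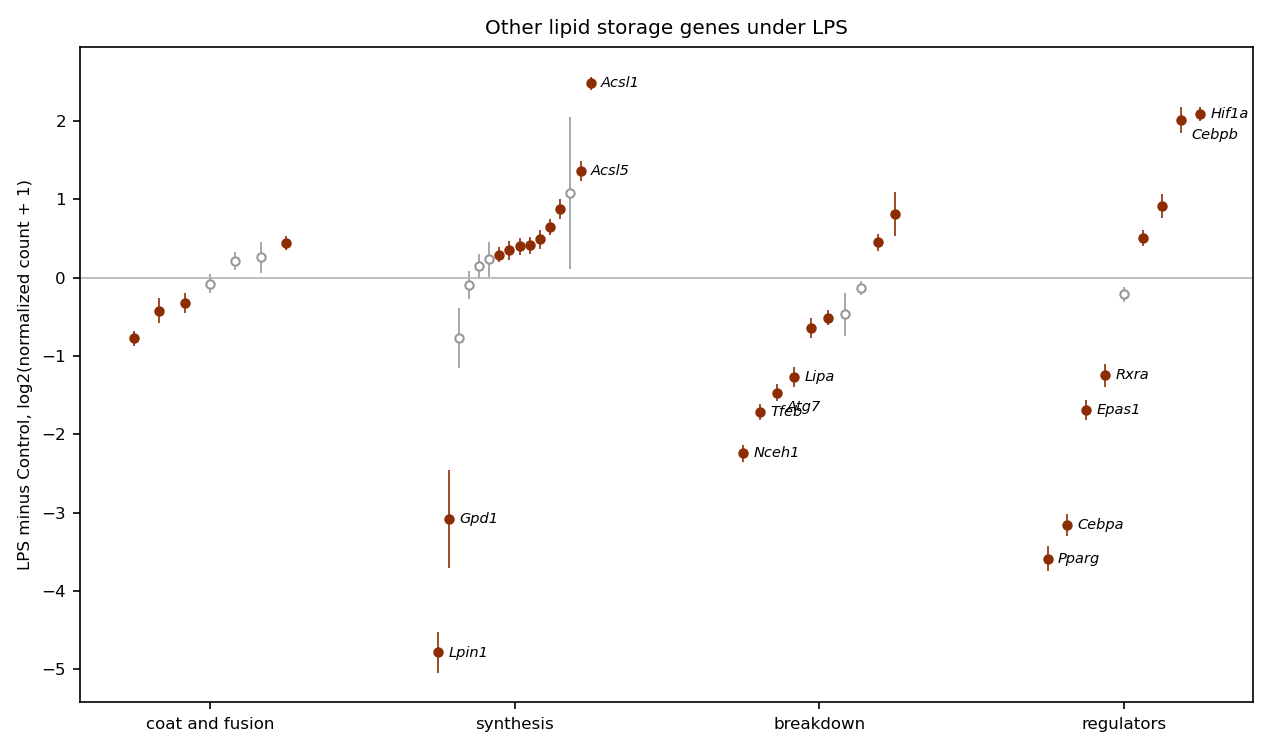
LPS minus Control on the log2(normalized count + 1) scale, mean and limma SE without a block with 3 libraries per group, for the tested genes of 4 lists, filled where called at an adjusted p under 0.1. Lpin1 at -4.78 and Pparg at -3.59 lie lowest and Acsl1 at 2.48 and Hif1a at 2.09 highest.

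For oxLDL minus Control, limma called 0 of the 42 list genes without a block, with 2 at an unadjusted p under 0.05, and 4 with the block, 2 higher and 2 lower, where the block called 1.8% of all genes as higher and 2.92% as lower. Acsl3, an acyl-CoA ligase of forming droplets, was at 230, 206 and 215 in control cells and at 114, 164 and 123 with oxLDL, lower by 0.71 on the log2 scale (limma with the block, adjusted p = 0.016). Epas1 was lower by 0.30, and Agpat4 and Lipa were higher by 0.24 and 0.30 (adjusted p = 0.073, 0.061 and 0.055 in the same fit). For oxLDL+LPS minus LPS the fit without a block called 0 of 41, with 8 at an unadjusted p under 0.05, and the blocked fit called 9, 5 higher and 4 lower, where it called 13.2% of all genes, 4.42% as higher and 8.74% as lower. Cebpa was higher by 1.07, Lipa by 0.67, Agpat4 by 0.50, Rxra by 0.40 and Tfeb by 0.34, and Acsl3 was lower by 0.59, Hif1a and Epas1 by 0.51 each and Acsl4 by 0.25. Lipa went from 16595, 16244 and 17048 with LPS to 31830, 20095 and 29239 with both agents, and the groups did not overlap.

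The genes whose profile over the 12 libraries was most like that of a member are given as a description, since all 12 points share the groups and the scaling. For Soat1 these were Cerk, Tec and Plin3 (Pearson r = 0.998, 0.998 and 0.997), and for Plin3 they were Tmem65, Soat1 and Psen2 (r = 0.997 each). For Dgat2 they were Sik3, Notch2 and Pik3r6 (r = 0.992, 0.988 and 0.988). For Angptl4 they were Nap1l1, ZNF383 and Zfp133-ps, with lower values (r = 0.926, 0.873 and 0.871).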

How the data were processed

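RNA from 12 PMφ cultures was made into poly(A) libraries with a directional kit. The authors used Trimmomatic 0.32 for trimming, STAR 2.5.1b for alignment to GRCm38 (mm10) and featureCounts for exonic counts, per the labels and the study's methods, and the strand setting is not given in the sources used here. The deposited signal holds whole numbers that are such counts after division by a library factor and rounding. Because these values were scaled and rounded and are not unscaled counts, count models were not used. Of the symbols, 25 had become dates (at most 0.165% of a library).

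Groups, taken from the labels, were compared with limma 3.58.1 in R 4.3.3 (lmFit, eBayes with a variance trend) on log2 of the signal plus 1, over genes at 10 or more in at least 3 of the libraries fitted, with Benjamini-Hochberg adjustment over all genes tested and a threshold of 0.1, the study's own. The replicate number as a block was an alternative. Same-numbered libraries correlated over 0.1 in every pair, so the numbers were taken to pair the libraries. Across LPS this does not hold for number 1, which held different pools without and with LPS. Replicates are pools of cells by the study's methods. Positions and exon lengths came from GENCODE vM21 by symbol, and levels per kilobase use the total exon length. The fit was tested on simulated data. All 10 members and the most alike genes of the 4 members that varied most among those that passed the filter were named by rule, and the members, lists and tests were chosen with earlier results of these data known.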

Additional observations from a re-analysis of the deposited data

Results flagged for a closer look

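The effect of oxLDL on Angptl4 differed between cells without and with LPS by -1.03 on the log2 scale, the interaction term of the 4 groups. It was singled out because a test of the difference itself passed in 1 of the fits tried, limma with a block by replicate number within each LPS state (adjusted p = 0.062), a fit chosen after seeing the data. Without a block (adjusted p = 1.0) and with the plain replicate block (adjusted p = 0.71) it did not pass. The oxLDL difference was 1.40, 0.95 and 1.65 in numbers 1, 2 and 3 without LPS and 0.17, 0.26 and 0.48 with LPS. Over the fits that left out a library or a number, it ran from -1.48 without LPS replicate 3 to -0.67 without oxLDL+LPS replicate 3, and from -1.18 to -0.94 over those that kept every library.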

How the results depend on the processing

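The member calls for oxLDL were made only in fits with the replicate block. With every library and no block limma called 0 genes of all tested in either oxLDL comparison, although 91 were called for oxLDL+LPS minus LPS without oxLDL+LPS replicate 2 and 67 without number 2, and with the block it called 601 for oxLDL minus Control and 1682 for oxLDL+LPS minus LPS. For oxLDL minus Control the block called 4 members, also with libraries scaled to the same total or quantile normalized, and 1, 1 and 4 members without replicate numbers 1, 2 and 3 in the blocked fit. For the genes of the 4 other lists it called 4 in each of these scalings, and 1, 1 and 7 without those numbers. For oxLDL+LPS minus LPS the block called 1 member, 3 with a common total, 2 with quantile normalization and 4 without number 2, and 9, 9, 7 and 13 genes of the other lists in the same fits. For the interaction, the block within each LPS state called 1 member and 3 other list genes, where it called 147 of 13482 genes. The blocked fit without number 2 called 1 other list gene, where it called 9 of 13192. These blocked fits without a number hold 2 pairs, so their counts move with few libraries. Without numbers 1, 2 and 3 they called 214, 139 and 1285 of all genes for oxLDL minus Control. For oxLDL+LPS minus LPS they called 71, 2945 and 0 without the same numbers. With a common total the block called 707 and 1581 of all genes for these comparisons, and with quantile normalization 422 and 986. Combined scalings, the block within LPS state and unblocked fits without a number were chosen after seeing the data.

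Unblocked fits that left out a library or a number called 0 members in both oxLDL comparisons and the interaction. For LPS minus Control they called 5 to 8 members (5 without number 1). Of all genes they called from 5827 of 12314 without number 3 to 7690 of 12566 without LPS replicate 1 there. They called 0 to 2 other list genes for oxLDL+LPS minus LPS and 0 to 1 for the interaction, the upper values without oxLDL+LPS replicate 2. Without that library, 91 of 12627 and 6 of 13426 of all genes were called.

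Directions of small differences turned. With a common total, with or without the block, Hilpda was at -0.065 for LPS minus Control and -0.27 for oxLDL+LPS minus oxLDL, and with quantile normalization, with or without the block, at -0.072 for the latter. In blocked fits the interaction of Plin2 was -0.038 without number 1, Lipe was at 0.037 for oxLDL minus Control without number 3, and Hilpda was at -0.093 and 0.00 for oxLDL+LPS minus LPS without numbers 1 and 3. Over fits that left out a library or a number without a block, these values ran from -0.056 to 0.11 for the interaction of Plin2, from -0.22 to 0.037 for Lipe and from -0.10 to 0.13 for Hilpda, and for oxLDL+LPS minus LPS from -0.15 to 0.66 for Angptl4 and from -0.0033 to 0.19 for Pnpla2. The causes were not tested. The 12 ratio differences kept their direction under both other pseudocounts and without each library in turn, and 11 were also recomputed after quantile normalization, chosen after seeing the data, and kept it. The Plin2 to Plin3 ratio then moved to 0.24 for LPS minus Control and 0.11 for oxLDL+LPS minus oxLDL, and the Pnpla2 to Lipe ratio moved to -2.66 and -2.65 in the same comparisons. With 3 libraries a group and whole-number values, Dgat2 without LPS and G0s2 were limited by depth.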
